A study of Homo sapiens with 8 samples.

Results

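The genes that switch plasminogen activation on and off were followed in LX-2 cells. LX-2 is a human hepatic stellate cell line that was immortalized, and stellate cells are the liver cells that lay down scar matrix in fibrosis. The set holds 5 genes of the 25369 in the count table, chosen by name: PLAU and PLAT, which encode the plasminogen activators uPA and tPA, PLAUR, which encodes the uPA receptor, and SERPINE2 and SERPINB2, which encode the inhibitors protease nexin-1 and PAI-2. The set was chosen with earlier results of these data known. All 5 passed the filter on low counts. RNA-seq libraries came from cells cultured on polyacrylamide hydrogels coated with plasma fibronectin. The gels were soft (2 kPa) or stiff (40 kPa), and the cells were collected after 2 or 4 days. There were 2 libraries for each of the 4 conditions, 8 in all. The cells of every condition were the same line in serum-containing medium, so the comparisons describe 1 line rather than cells from several livers. The study describes the libraries of a condition as coming from independent experiments.

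Plasminogen is a circulating zymogen. uPA and tPA cleave it to plasmin, a broad serine protease that dissolves fibrin, degrades matrix proteins and activates growth factors and matrix metalloproteinases. The receptor uPAR holds uPA on the cell surface, and serpins trap the activators in inactive complexes. Protease nexin-1 also inhibits thrombin. PAI-2 is mostly kept inside cells. In the injured liver, plasmin activity is known for its part in clearing matrix.

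The proximal promoters of PLAUR, SERPINB2, PLAU and SERPINE2 are shown as a description of their sequence. Each sequence is the 250 bases before an annotated start site, 5′ to 3′ on the gene's own strand, from RefSeq with GRCh38.p14 coordinates. Capitals mark TGANTCA, the core recognised by AP-1, and the TATA box TATAAA.
PLAUR, chr19:43670170-43670419, minus strand: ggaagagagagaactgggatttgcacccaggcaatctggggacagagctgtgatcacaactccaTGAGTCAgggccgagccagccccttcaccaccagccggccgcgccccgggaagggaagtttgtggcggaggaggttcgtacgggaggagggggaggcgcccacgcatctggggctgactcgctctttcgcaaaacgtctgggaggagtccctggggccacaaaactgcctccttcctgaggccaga
SERPINB2, chr18:63887455-63887704, plus strand: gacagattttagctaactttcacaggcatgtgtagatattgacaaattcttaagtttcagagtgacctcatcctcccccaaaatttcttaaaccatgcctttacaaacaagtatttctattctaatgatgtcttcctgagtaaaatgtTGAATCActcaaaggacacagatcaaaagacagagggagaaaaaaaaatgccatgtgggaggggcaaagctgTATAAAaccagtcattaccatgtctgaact
PLAU, second listed start site, chr10:73910882-73911131, plus strand: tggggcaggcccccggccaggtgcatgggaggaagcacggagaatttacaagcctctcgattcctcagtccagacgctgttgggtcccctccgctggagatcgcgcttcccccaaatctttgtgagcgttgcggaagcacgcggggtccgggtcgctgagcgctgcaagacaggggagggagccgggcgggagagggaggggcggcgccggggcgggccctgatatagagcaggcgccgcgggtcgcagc
SERPINE2, second listed start site, chr2:224038641-224038890, minus strand: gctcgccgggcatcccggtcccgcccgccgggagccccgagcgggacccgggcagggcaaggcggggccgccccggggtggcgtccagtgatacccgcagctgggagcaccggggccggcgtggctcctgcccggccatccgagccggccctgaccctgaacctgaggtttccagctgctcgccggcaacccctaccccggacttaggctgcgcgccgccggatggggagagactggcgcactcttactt

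PLAUR had TGAGTCA beginning at position -186 and SERPINB2 had TGAATCA beginning at -102, counted back from the base before the start site as -1. The windows of PLAU and SERPINE2, at both of the start sites listed for each gene, held no TGANTCA. Of 35116 windows of the same length in the whole table, 6.57% held it on either strand. PLAT was not scanned. Of the 4 genes scanned, SERPINB2 alone had TATAAA, at -30, which occurs in 10.7% of all windows. The GC box GGGCGG occurred 3 times in the printed PLAU window and 2 times in that of SERPINE2, on either strand, and in 42.6% of all windows. CATTCC, the TEAD core, was in none of these windows and in 11.9% of all windows. A match describes the letters only.

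In the annotation of GRCh37, the build of the deposited tables, PLAU lies on chromosome 10 (75668935 to 75677254, plus strand), PLAT on chromosome 8 (42032236 to 42065227, minus strand) and PLAUR on chromosome 19 (44150247 to 44174699, minus strand). SERPINE2 lies on chromosome 2 (224839762 to 224904035, minus strand) and SERPINB2 on chromosome 18 (61538926 to 61571122, plus strand). Exons of PLAU overlap the noncoding gene C10orf55 on the opposite strand. C10orf55 received 5 to 15 counts per library, or 1.41% to 3.04% of the PLAU count. SERPINB2 shares its strand with an overlapping gene model, ENSG00000289724. The strand setting of the counting is not given in the sources used here, so whether reads of PLAU and C10orf55 were told apart is not known. No strand setting would separate SERPINB2 from a gene on its own strand. Whether the counting used that gene model is also not given.

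The libraries held 19955975 to 27263935 counts. The 2 libraries of the stiff matrix at 4 days stood apart from each other: a chi-square over genes divided by its degrees of freedom was 119.68 for that pair, against 3.53 to 20.1 for the other pairs. The main results that rest on them are given with and without each. Of 11 stellate cell or fibroblast markers 9 passed the filter. All 11 were summed in counts scaled to library size (CPM, with TMM factors). The sum was 3245 to 3550 CPM on the soft and 3908 to 4138 CPM on the stiff matrix at 2 days. It was 5292 to 5872 and 5291 to 7859 CPM at 4 days. VIM, at 1966 to 6360 CPM, made up most of it, while COL1A1 had 504 to 1021 CPM and ACTA2 8.02 to 19.4 CPM. The other collagen genes of the list were low, COL1A2 at 2.13 to 4.06 CPM and COL3A1 at 5.29 to 40.9 CPM. DES and LRAT stayed under 1 CPM in every library. Endothelial markers and 4 of 5 hepatocyte markers were also under 1 CPM throughout. The bile duct list, nearly all SOX9, summed to 19.0 to 20.6 CPM on the soft and 21.3 to 24.0 CPM on the stiff matrix at 2 days, and to 51.4 to 55.4 and 41.3 CPM at 4 days, with KRT19 and EPCAM under 1 CPM throughout. The macrophage or blood cell list, mostly CD68, summed to 91.7 to 97.1 (soft) and 108 to 110 CPM (stiff) at 2 days, and to 107 to 109.7 (soft) and 118 to 127 CPM (stiff) at 4 days. These lists moved with the matrix or the day, and their part in the results was not tested.

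The levels of the members spanned more than an order of magnitude. Levels between genes were compared as FPKM, which divide by transcript length. PLAT was the highest member in all 8 libraries, at 88.9 to 126 FPKM, and PLAU was the lowest in all 8, at 4.33 to 10.6 FPKM. PLAU thus made up 3.36% to 9.37% of the summed FPKM of both activators in a library. Over all libraries the mean was 106 FPKM for PLAT, 41.8 for PLAUR, 29.7 for SERPINE2, 27.7 for SERPINB2 and 6.94 for PLAU. Their ranks among the 14570 genes tested were 692, 1946, 2749, 2918 and 7290.

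The 3 genes between PLAT and PLAU changed places with the condition. On the soft matrix at 2 days, PLAUR followed PLAT in both libraries, and SERPINE2 (24.3 and 24.6 FPKM) and SERPINB2 (22.3 and 26.0 FPKM) overlapped. In both stiff libraries of 2 days the order was PLAT, PLAUR, SERPINB2, SERPINE2, PLAU. On the soft matrix at 4 days SERPINE2 came second, at 46.9 and 41.9 FPKM, ahead of PLAUR at 32.3 and 27.4 FPKM. On the stiff matrix at 4 days PLAUR (42.1 and 57.6 FPKM) and SERPINB2 (46.3 and 31.2 FPKM) overlapped, and SERPINE2 (27.5 and 30.2 FPKM) lay below both.

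**Figure D1:**
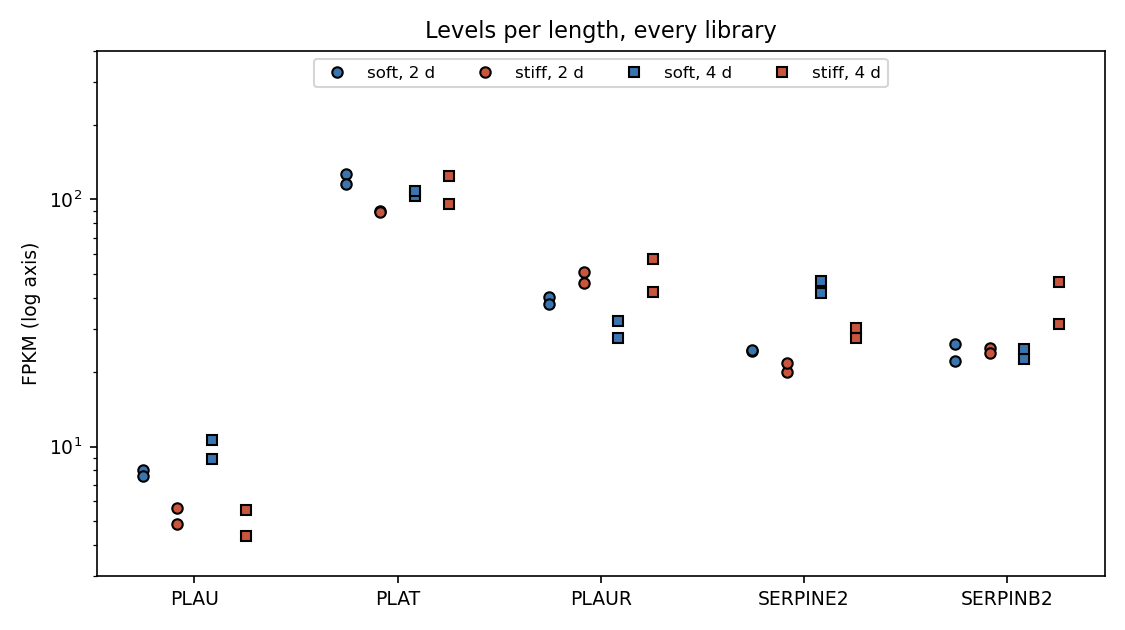
FPKM of the 5 members in each of the 8 libraries, on a log axis. PLAT is the highest member and PLAU the lowest in every library, and the 3 genes between them change places.

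The question put to these samples was how the stiffness of the matrix alters expression. On the stiff matrix the activator gene PLAU and the inhibitor gene SERPINE2 had lower values at both days, and the receptor gene PLAUR had higher values at both days. SERPINB2 was higher on the stiff matrix only among the libraries of 4 days, and PLAT lower only among those of 2 days. In the quasi-likelihood test of edgeR, adjusted by Benjamini-Hochberg over 14570 genes, 0 of the 5 members passed an adjusted p of 0.05 at 2 days, where 0% of all genes did. At 4 days 0 of 5 passed, beside 0.247% of all genes. With both days together 0 of 5 passed, beside 0.426%. At an unadjusted p under 0.05 the count was 2 of 5 at 2 days, 4 of 5 at 4 days and 4 of 5 for both days, where the shares over all genes were 2.82%, 6.93% and 7.7%. DESeq2, the tool of the study, called 0 of 5 at 2 days, 3 of 5 at 4 days and 3 of 5 over both days, beside 0.196%, 1.08% and 1.44% of all genes.

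The activator gene PLAU had 21.7 and 20.4 CPM in the soft libraries at 2 days and 13.1 and 15.1 CPM in the stiff ones. The 4-day libraries had 28.8 and 24.3 CPM on the soft gel and 11.7 and 15.1 CPM on the stiff. All 4 libraries of the stiff matrix lay below all 4 of the soft matrix. The share of all genes split in this way across both days was not computed. In bulk libraries, fewer cells expressing a gene and less of its RNA per cell cannot be told apart. The means were 21.0 ± 0.859 and 14.1 ± 1.40 CPM at 2 days and 26.6 ± 3.14 and 13.4 ± 2.41 CPM at 4 days (SD, n = 2). The log2 fold change was -0.57 (SE 0.177, unadjusted p = 0.0122) at 2 days, which did not pass adjustment. It was -0.98 at 4 days (95% interval -1.40 to -0.57, edgeR adjusted p = 0.110), and -0.78 (SE 0.126, adjusted p = 0.0572) over both days, the smallest adjusted p of a member for stiffness. DESeq2 gave PLAU an adjusted p of 0.00140 at 4 days and 9.27e-05 over both days. PLAU rested on 239 to 617 counts per library, the fewest of the set.

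PLAT, the gene of the activator best known for acting on fibrin, differed from PLAU. Its values at 2 days were 402 and 368 CPM on the soft matrix and 285 and 282 CPM on the stiff. At 4 days they were 329 and 351 CPM on the soft matrix and 398 and 307 CPM on the stiff. The groups did not overlap at 2 days, where the log2 fold change was -0.44 (SE 0.156, unadjusted p = 0.0227), and they overlapped at 4 days, where it was 0.05 (95% interval -0.31 to 0.41). The sign at 4 days turned with the library left out: it was -0.14 without replicate 1 and 0.24 without replicate 2 of the stiff matrix.

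For the receptor, PLAUR had 81.1 and 75.8 CPM in soft and 102 and 91.9 CPM in stiff libraries at 2 days. After 4 days the soft libraries had 65.3 and 56.2 CPM and the stiff ones 85.2 and 117 CPM. Every library of the stiff matrix lay above every library of the soft matrix, across both days. For this split, too, no share of all genes was computed. The log2 fold change was 0.30 (95% interval -0.11 to 0.72, unadjusted p = 0.127) at 2 days. At 4 days it was 0.74 (SE 0.179, edgeR adjusted p = 0.261), and DESeq2 gave an adjusted p of 0.0380.

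Of the inhibitors, SERPINE2 had 74.2 and 75.1 CPM in soft and 61.4 and 66.5 CPM in stiff libraries at 2 days. It had 144 and 130 CPM in soft and 84.4 and 93.2 CPM in stiff libraries at 4 days. The stiff libraries lay below the soft ones within each day, and the gap was wider at 4 days. The log2 fold change was -0.22 (95% interval -0.52 to 0.07, unadjusted p = 0.122) at 2 days. It was -0.63 at 4 days (SE 0.129, edgeR adjusted p = 0.167), where DESeq2 gave an adjusted p of 0.00601.

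SERPINB2 had 48.4 and 56.2 CPM (soft) and 54.4 and 51.6 CPM (stiff) at 2 days, and 49.2 and 54.7 CPM in the soft libraries of 4 days. In the stiff libraries of 4 days it had 101 and 68.6 CPM. The last pair lay above the other 6 libraries, a split picked from these values for which no share of all genes was computed. That pair was also the widest of the gene, at 84.8 ± 22.9 CPM (SD, n = 2). The log2 fold change between matrices was 0.02 (95% interval -0.43 to 0.47) at 2 days and 0.71 (SE 0.197, edgeR adjusted p = 0.371) at 4 days. DESeq2 gave an adjusted p of 0.122 at 4 days.

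**Figure D2:**
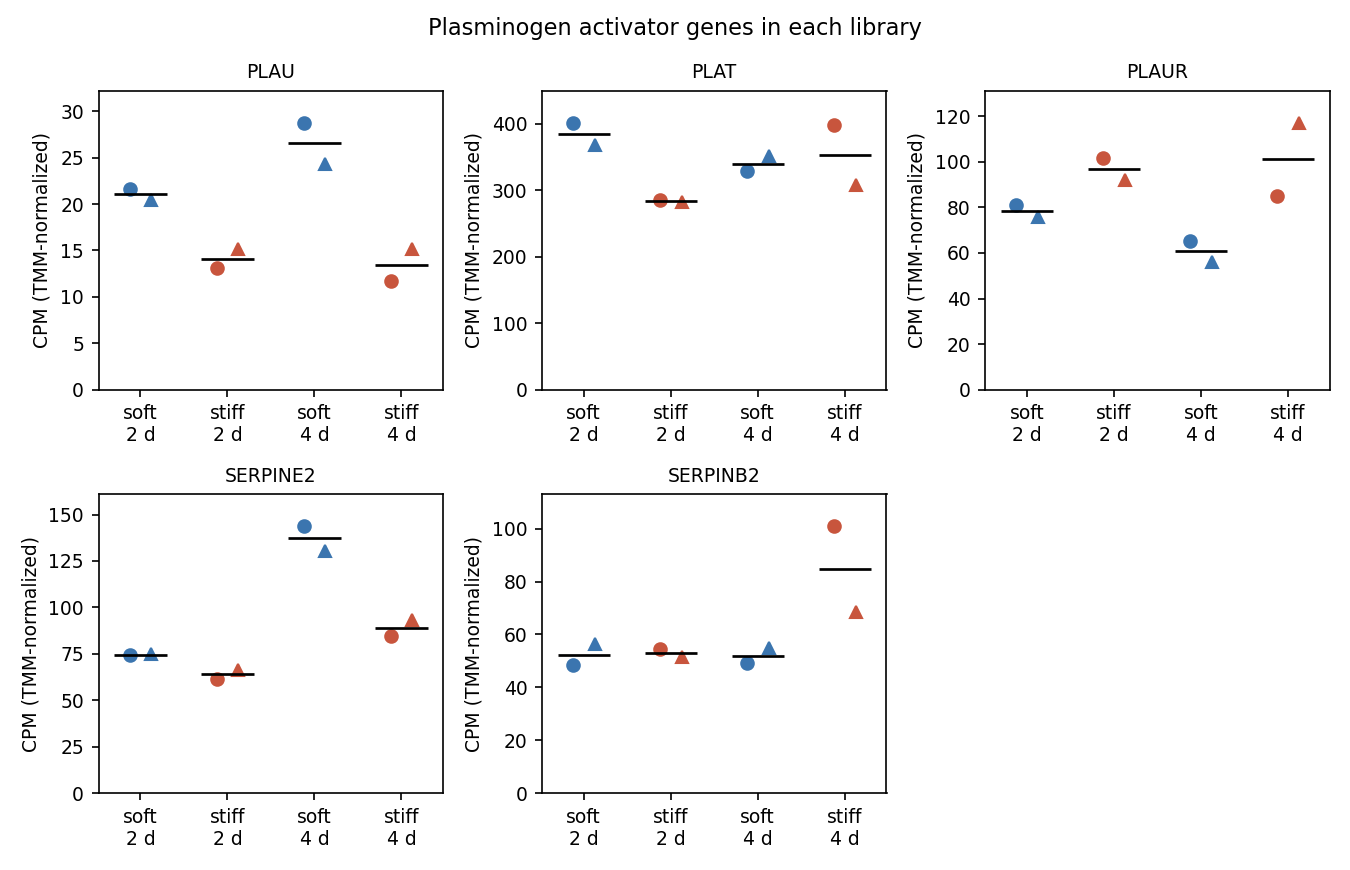
TMM-normalized CPM of the 5 members by matrix and day (2 d and 4 d), blue for soft and red for stiff, circles for replicate 1, triangles for replicate 2 and a line for the mean. The stiff libraries of PLAU lie below 16 CPM and the soft ones above 20 CPM, PLAUR goes the other way, and SERPINB2 is high only in the stiff libraries at 4 days.

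The libraries of the matrices did not overlap for 4 of 5 members at 2 days, beside 48.2% of all genes, and for 4 of 5 at 4 days, beside 25.7%. For PLAU, PLAUR and SERPINE2 they did not overlap at either day and pointed the same way, 3 of 5 members beside 10.9% of all genes. The median log2 fold change of the members was -0.22 at 2 days and 0.05 at 4 days, beside 0.01 and 0.02 over all genes, since the members went in both directions.

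The counts at 4 days depended on the stiff pair. Without replicate 1 of the stiff matrix, 4 of 5 members were called by edgeR, beside 31.1% of all genes, with adjusted p of 0.00177 for PLAU, 0.000120 for PLAUR, 0.00477 for SERPINE2 and 0.0303 for SERPINB2. Without replicate 2, 4 of 5 were called, beside 3.63% of all genes, with 0.000475, 0.0491, 0.00554 and 0.000250. In these fits the remaining stiff library is alone in its group and is assumed to vary like the others. The log2 fold change of PLAUR was 0.96 and 0.50 in them, and that of SERPINB2 was 0.41 and 0.97.

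Whether the effect of stiffness changed between the days was tested as an interaction, where 0 of 5 members passed the adjusted cutoff, beside 0% of all genes. At an unadjusted p under 0.05 there was 1 of 5, beside 1.95%, and DESeq2 called 0 of 5, beside 0.015%. That member was SERPINB2, whose effect was higher by 0.69 on the log2 scale at 4 days (95% interval 0.05 to 1.33, unadjusted p = 0.0383). This value was 0.40 without replicate 1 of the stiff matrix at 4 days and 0.96 without replicate 2, and only the latter was called (adjusted p = 0.0422, beside 0.0799% of all genes). For SERPINE2 the change was -0.40 (95% interval -0.82 to 0.02), for PLAU -0.41 (-0.99 to 0.17) and for PLAUR 0.43 (-0.15 to 1.01). The PLAUR value was 0.66 (adjusted p = 0.0147) without replicate 1, where 20.9% of all genes were called, and 0.20 (adjusted p = 0.897) without replicate 2.

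**Figure D3:**
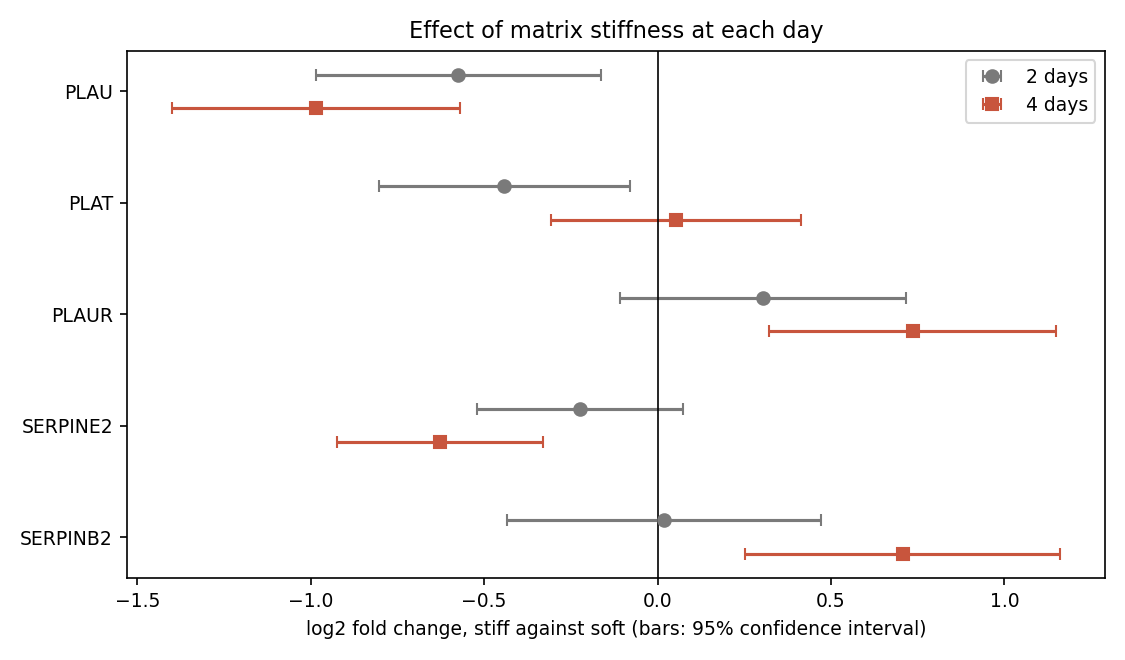
Log2 fold change of the stiff against the soft matrix at 2 and at 4 days for the 5 members, with 95% intervals from edgeR. The estimates of PLAU and SERPINE2 lie below 0 and that of PLAUR above 0 at both days, and SERPINB2 moves from 0.02 to 0.71. At 2 days the intervals of PLAUR, SERPINE2 and SERPINB2 include 0, as does that of PLAT at 4 days.

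Ratios within a library do not depend on the scaling between libraries. The FPKM ratio of PLAUR to PLAU was 5.02 and 4.97 in soft and 10.4 and 8.14 in stiff libraries at 2 days. It was 3.04 and 3.10 in soft and 9.72 and 10.4 in stiff libraries at 4 days. The receptor transcript thus exceeded that of its ligand by a mean of 10.1 ± 0.461 times on the stiff matrix at 4 days and 3.07 ± 0.0381 times on the soft (SD, n = 2). The ratio of SERPINB2 to PLAU was 2.78 and 3.42, then 5.14 and 4.24, at 2 days, and 2.12 and 2.79, then 10.7 and 5.62, at 4 days, soft before stiff. That of SERPINE2 to PLAU was 3.03 and 3.24, then 4.12 and 3.88, at 2 days, and 4.41 and 4.73, then 6.35 and 5.43, at 4 days. All 3 ratios were higher on the stiff matrix in each library of a day. They share PLAU, which was lower there, so they are not separate results. SERPINE2 itself was also lower on the stiff matrix. PLAT over PLAU, higher there too, was 15.7 and 15.3, then 18.4 and 15.8, at 2 days, soft before stiff. At 4 days it was 9.67 and 12.2, then 28.7 and 17.2. How often other genes over PLAU go this way was not computed. No test was run on the ratios.

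Both activators were also summed and set against the member serpins. The log2 ratio of PLAU plus PLAT to SERPINE2 plus SERPINB2, in FPKM, was 1.41 ± 0.170 on the soft and 1.06 ± 0.0112 on the stiff matrix at 2 days (SD, n = 2). It was 0.76 ± 0.0738 and 0.76 ± 0.0595 at 4 days, and these means differed by less than the spread.

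**Figure D4:**
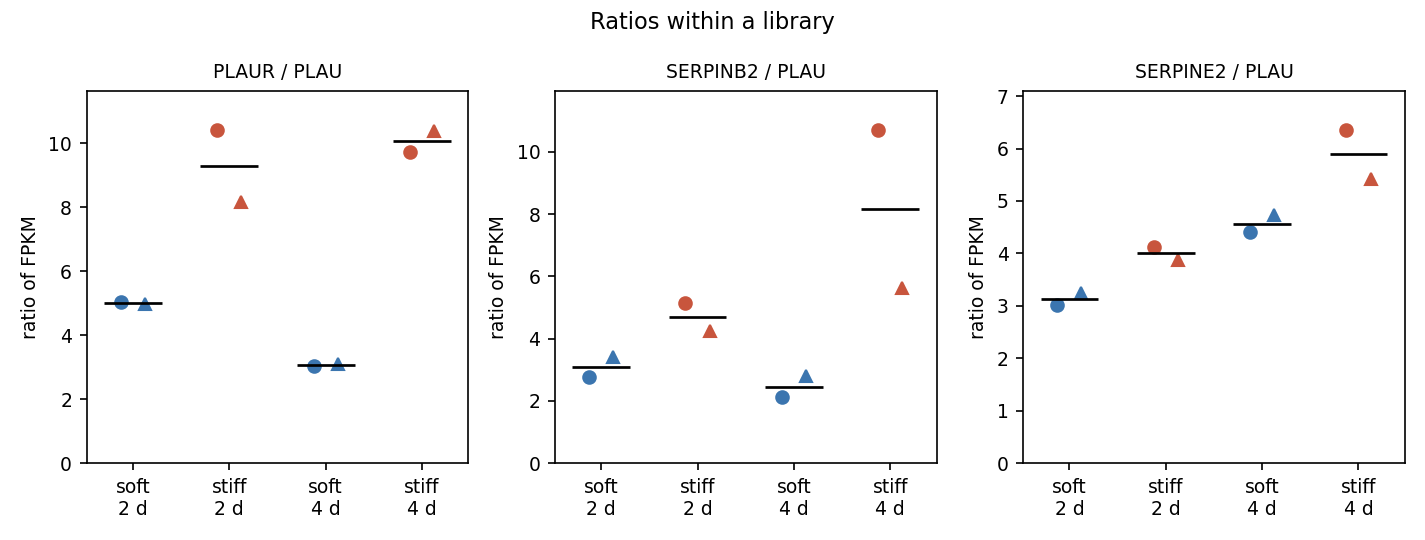
Ratios of FPKM within each library, PLAUR, SERPINB2 and SERPINE2 each over PLAU, by matrix and day, with blue for soft, red for stiff, circles for replicate 1, triangles for replicate 2 and a line for the mean. Each ratio is higher in the stiff than in the soft libraries of the same day, and PLAUR over PLAU goes from 3.04 and 3.10 to 9.72 and 10.4 at 4 days.

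Between 2 and 4 days SERPINE2 rose on both matrices and SERPINB2 rose on the stiff matrix. On the soft matrix 1 of 5 members was called, beside 27.4% of all genes, and on the stiff matrix 2 of 5, beside 27.6%. At an unadjusted p under 0.05 there were 1 of 5 and 2 of 5, beside 41% and 41.4%. DESeq2 called 1 of 5 and 2 of 5, beside 29.4% and 27.9%. These shares are near the background or below it. SERPINE2 rose by 0.88 on the log2 scale on the soft matrix (SE 0.129, edgeR adjusted p = 0.00401) and by 0.47 on the stiff (SE 0.129, adjusted p = 0.0310). SERPINB2 rose by 0.68 on the stiff matrix (SE 0.196, adjusted p = 0.0377), while its change on the soft matrix was -0.01 (95% interval -0.46 to 0.44). The change of SERPINB2 on the stiff matrix was 0.37 without replicate 1 of the stiff matrix at 4 days and 0.92 without replicate 2, and that of SERPINE2 was 0.54 and 0.39, all 4 with an adjusted p under the cutoff in fits that called 52.1% and 43.8% of all genes. With the replicate number as a block, the calls on the stiff matrix were lost, at an adjusted p of 0.0758 for SERPINE2 and 0.0743 for SERPINB2. They were also lost when any 1 of the 6 other libraries was left out, with adjusted p between 0.0629 and 0.212 for SERPINE2 and between 0.0647 and 0.212 for SERPINB2. The call on the soft matrix was lost without replicate 1 of the soft matrix at 2 days (adjusted p = 0.0616).

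The remaining members did not pass in either time comparison. PLAU changed by 0.34 (adjusted p = 0.187) on the soft and -0.07 (adjusted p = 0.784) on the stiff matrix. PLAUR changed by -0.37 (adjusted p = 0.160) and 0.06 (adjusted p = 0.815), and PLAT by -0.18 (adjusted p = 0.419) and 0.31 (adjusted p = 0.167). The libraries of the days did not overlap for 4 of 5 members on the soft matrix, beside 75.3% of all genes, and for 3 of 5 on the stiff, beside 62.7%. The median log2 fold change of the members was -0.01 and 0.31, beside 0.02 and 0.03 over all genes.

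Among the other serpins, 13 of 34 passed the filter on low counts. None of the 13 was called for stiffness at either day, beside 0% of all genes at 2 days and 0.247% at 4 days. At an unadjusted p under 0.05, 0 were higher and 1 was lower at 2 days, and 2 were higher and 0 lower at 4 days. Over all genes 2.82% (2 days) and 6.93% (4 days) had such a p in either direction. The median log2 fold change was -0.19 at 2 days and -0.13 at 4 days, beside 0.01 and 0.02 over all genes. Of these 13, the highest were SERPINH1, the collagen chaperone HSP47, at a mean of 92.7 FPKM, SERPINB6, an intracellular protease inhibitor, at 50.5 FPKM, and SERPINB8, another intracellular serpin, at 16.6 FPKM. With time 4 serpins rose and 0 fell on each matrix, beside 14.1% and 14% of all genes that rose. They were SERPING1, which encodes the C1 inhibitor (log2 fold change 1.45 on the soft and 1.61 on the stiff matrix), SERPINB9, a granzyme B inhibitor (1.40 and 1.44), SERPINB7 (1.13 and 1.70), and SERPINB1, an inhibitor of neutrophil proteases (0.96 and 1.17). SERPINB7, for which the matrices did not overlap at 4 days, had 15.4 and 14.1 CPM in soft and 29.1 and 21.8 CPM in stiff libraries then (log2 fold change 0.79, adjusted p = 0.270).

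The wider plasminogen system, 35 genes for plasminogen receptors, clearance receptors and neighbouring coagulation factors, had 24 members tested. None was called for stiffness at either day, beside 0% of all genes at 2 days and 0.247% at 4 days. At an unadjusted p under 0.05, 1 was higher and 3 were lower at 2 days, and 1 was higher and 6 were lower at 4 days. Over all genes 2.82% (2 days) and 6.93% (4 days) had such a p in either direction. Its median log2 fold change was -0.02 at 2 days and -0.13 at 4 days. Plasminogen itself, PLG, had 0 to 5 counts per library and was not tested, and SERPINF2, the plasmin inhibitor, had 0 to 11. The plasminogen receptor genes were abundant, at a mean of 2873 FPKM for ANXA2, 767 for ENO1 and 392 for S100A10, the partner of ANXA2.

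With time 3 genes of this list rose and 3 fell on the soft matrix, and 4 rose and 3 fell on the stiff. Of all genes 14.1% rose and 13.3% fell on the soft matrix, and 14% rose and 13.7% fell on the stiff. TFPI, the inhibitor of the tissue factor pathway, rose by 2.04 on the log2 scale on the soft and 1.97 on the stiff matrix, and F3, tissue factor itself, by 1.35 and 1.62. VTN, which encodes the adhesive plasma protein vitronectin, rose by 1.86 and 2.03. ANXA2 rose by 0.66 on the stiff matrix (adjusted p = 0.0452), where its libraries at 4 days held 5786 and 8348 CPM. ITGB5, a subunit of a vitronectin receptor, fell by 0.42 on the soft and fell by 0.64 on the stiff matrix, and F12, coagulation factor XII, fell by 1.15 on the soft matrix.

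Of 19 genes for plasmin substrates and proteins that plasmin activates, 13 were tested, and MMP9 alone was called for stiffness, at 4 days and over both days. Of all genes, 0.213% were called lower on the stiff matrix at 4 days and 0.35% over both days. MMP9, a gelatinase whose zymogen lies downstream of plasmin, had 13.1 and 13.4 CPM in soft and 2.23 and 4.48 CPM in stiff libraries at 2 days. Its 4-day libraries had 20.9 and 17.4 CPM (soft) and 1.96 and 2.42 CPM (stiff). The stiff libraries lay below the soft ones at both days, as for PLAU, with a log2 fold change of -1.98 at 2 days (adjusted p = 0.334) and -3.13 at 4 days (SE 0.320, adjusted p = 0.0151). The median of the list was 0.06 at 2 days and 0.08 at 4 days. The highest of the list were FN1, fibronectin, at a mean of 125 FPKM, TGFB1, the fibrogenic cytokine, at 56.1 FPKM and VEGFC at 31.6 FPKM. HGF, the growth factor that uPA can activate, had 0 to 3 counts per library and was not tested.

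With time 5 genes of the list rose and 3 fell on the soft matrix, and 4 rose and 3 fell on the stiff. The shares over all genes tested were 14.1% higher and 13.3% lower for soft gels. For stiff gels they were 14% higher and 13.7% lower. IGFBP5, which binds insulin-like growth factors, rose by 2.32 and 2.75. The latent growth factors VEGFC and PDGFC, both activated by proteolysis, rose by 1.03 and 0.99 and by 1.07 and 0.68. The interstitial collagenase MMP1 fell by 1.76 on the soft gel and fell by 1.26 on the stiff. VEGFA, an angiogenic factor, fell by 1.45 on the soft gel and fell by 1.57 on the stiff.

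Genes with the profile most like each member were found by the root mean square difference of log2 CPM over the 8 libraries, after centring each gene on its mean, among 12164 genes. The libraries share conditions, so this is a description with no test. JAM2, a junctional adhesion molecule, lay 0.0781 log2 units from SERPINE2. The nearest to PLAU was ERAP2, a peptide-trimming protease, at 0.107, followed by HERC6 at 0.124 and BTN3A3 at 0.132. PLAUR was nearest to SLC38A5, an amino acid transporter, at 0.104, TEAD4, a transcription factor that partners YAP, at 0.108, and ODC1, an enzyme of polyamine synthesis, at 0.112. For PLAT they were ZNF34, ZNF740 and CEP76, at 0.0953 to 0.105, and for SERPINB2 NTN4, DIS3L and NRIP3, at 0.151 to 0.160. Within the set, PLAT and SERPINB2 were 0.323 and PLAU and SERPINE2 0.334 apart, and PLAU and PLAUR, at 0.699, were farthest apart. The median difference from all genes compared was 0.351 for PLAT, 0.426 for SERPINB2, 0.522 for PLAU, 0.473 for SERPINE2 and 0.442 for PLAUR.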

How the data were processed

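RNA-seq of 8 LX-2 libraries was used. The authors trimmed reads with Trim Galore, mapped them to hg19 with STAR (2.7.1a in the submitters' processing notes) and deposited counts per gene made with HTSeq, without normalization. The gene annotation and strand setting are not given in the sources used here. The deposited FPKM of the same genes are scaled by size factors rather than by total counts: the ratio of count to FPKM between libraries was the same in all 15016 genes checked, within 9.77e-15. They were used for levels and as an alternative.

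Counts were tested in R 4.3.3 with edgeR 4.0.16 (TMM factors 0.870 to 1.08, filterByExpr, quasi-likelihood test, 4 conditions in one fit, prior of 3.86 degrees of freedom), with Benjamini-Hochberg adjustment over 14570 of 25369 genes and a cutoff of 0.05. Libraries of 19955975 to 27263935 counts leave counting error small for the members, so the 2 libraries per condition set the precision. Alternatives used DESeq2 1.42.0, limma 3.58.1 on log2(FPKM + 1) or log2(FPKM + 0.1) for genes with at least 1 FPKM in at least 2 libraries, other factors, filters and fits, a replicate block, and leaving out each library. The tests were also run on simulated counts, with spiked changes larger than those of the members and the same spread per gene in every condition. This does not show how they perform for effects of the members' size or for the noisy stiff pair.

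Groups and replicate numbers came from the labels, and the stiffness from the study's text. Named genes are the members, genes of 3 lists that passed the cutoff (at most 4 per list and comparison), the 3 highest by FPKM of each list, and the 3 nearest in profile. A few genes of the lists are not reported here and were left out of their counts. The members and lists were chosen with earlier results of these data known. No column lacked a sample: 0 were left out. Promoters came from RefSeq (GRCh38.p14) and gene positions from a GRCh37 annotation.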

Additional observations from a re-analysis of the deposited data

Results flagged for a closer look

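PLAT values were lower at 4 than at 2 days on the soft matrix and higher on the stiff matrix, in both libraries of each. The days did not overlap on either matrix, beside 75.3% (soft) and 62.7% (stiff) of all genes. Neither change passed the cutoff (edgeR adjusted p = 0.419 and 0.167). The share of genes that moved in opposite directions was not computed. The difference between the changes was 0.49 on the log2 scale (SE 0.221, unadjusted p = 0.0559, edgeR adjusted p = 0.999655). It ran from 0.31 to 0.69 when 1 library was left out.

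PDGFC was higher on the stiff matrix at 2 days (74.3 and 69.0 CPM against 58.8 and 66.9 CPM) and lower at 4 days (120 and 110 CPM against 129 and 134 CPM), with a difference between the effects of -0.39 (SE 0.185, unadjusted p = 0.0705, edgeR adjusted p = 0.999655). Neither difference passed the adjusted cutoff.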

How the results depend on the processing

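The number of members called, out of 5, depended on the fit. At 2 days it was 0, but 3 with only the 4 libraries of the comparison (4.67% of all genes called) and 2 with voom and sample quality weights (1.28%). At 4 days it was 0, but 3 with DESeq2 (1.08%). Over both days it was 0, but 3 with DESeq2 (1.44%), 1 with no scaling factors (0.522%) and 1 with the crossed block (0.618%). For time on the soft matrix it was 1, but 2 with only the 4 libraries of the comparison (50.7%) or with voom (49.1%), and 0 when at least a 2-fold change was also asked (10.8%). For time on the stiff matrix it was 2, but 0 with no scaling factors (24.8%), with only the 4 libraries (0%), with the replicate block (17.5%), with voom (13.9%) or with a 2-fold change (11.2%), and 1 with no filter beyond 1 count (17.7%), with limma on log2(FPKM + 0.1) (28.8%) and with limma on log2(FPKM + 1) and no filter (17.1%). The cause of these shifts was not tested.

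Leaving out 1 library at a time gave 0 to 2 calls at 2 days, 0 to 4 at 4 days, 0 to 4 over both days, 0 to 1 for the change of the effect, and 0 to 3 for time on either matrix. The higher counts for stiffness came without a stiff library of 4 days, and at 4 days the fit without replicate 1 called 31.1% of all genes and that without replicate 2 called 3.63%. Direction turned only for log2 fold changes near 0. With no scaling factors these were SERPINB2 at 2 days (-0.051), PLAT at 4 days (-0.055) and PLAUR over time on the stiff matrix (-0.080). Leaving out libraries gave -0.085 to 0.13 for SERPINB2 at 2 days, -0.14 to 0.24 for PLAT at 4 days, -0.12 to 0.10 for SERPINB2 over time on the soft gel, and, over time on the stiff gel, -0.28 to 0.10 for PLAU and -0.19 to 0.27 for PLAUR. With no scaling factors the median of all genes shifted by -0.11 at 4 days and -0.13 over time on the stiff matrix.

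With the replicate number as a block, 0 members were called at 2 days, 0 at 4 days, 0 over both days, 0 for the change of the effect, 1 for time on the soft gel and 0 for time on the stiff gel. Same-numbered deviations from the group means correlated at -0.04 at 2 days and -0.49 at 4 days, so the numbers are not shown to pair the libraries. The crossed block and voom were chosen after seeing the data.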
